A study of Rattus norvegicus with 15 samples.

Results

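The genes described here encode the proteins of the mitochondrial ribosome in rat lung. They were taken as the rows of the expression table whose symbol begins with Mrpl or Mrps followed by a digit, and that reached an FPKM of 1 or more in 5 or more of the 15 libraries. FPKM counts sequenced fragments per length of gene and per number of mapped fragments. Of 22250 rows, 76 had such a symbol and 73 passed the filter, 44 named Mrpl, mostly of the large subunit, and 29 named Mrps, mostly of the small one. They are 73 of the 13172 genes tested. The 3 rows that did not pass were Mrpl1, which lay between 0 and 1.13 FPKM, and a pair of rows both named Mrps21l, of which the first was listed at 0 in every library and the second reached 1.39 FPKM in a single WDD library. Just inside the filter were Mrpl49 and Mrpl36, with 9 libraries at 1 FPKM or more, and Mrpl53 with 13.

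RNA from the lungs of wild-type (WT) rats was sequenced in 5 libraries per group. The control group held normal rats without treatment. The COPD group had lipopolysaccharide (LPS), from bacterial walls, and smoke delivered into the trachea to model chronic obstructive pulmonary disease. Rats of the WDD group had that exposure as well and was given Wendan Decoction, a herbal formula, into the stomach, so LPS and smoke are shared by the COPD and WDD groups. The series compares the expression profile of the 3 groups. Whether the libraries of a group are from different rats is not stated in the labels, and p-values then cover only the spread between these libraries. Whole lung was sequenced, and fewer cells of a type cannot be told apart from less RNA per cell.

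The mitochondrial ribosome, or mitoribosome, sits at the inner mitochondrial membrane and makes the respiratory chain proteins that the mitochondrial genome encodes. Its RNA comes from the mitochondrial genome, while all of its proteins are encoded in the nucleus, made by cytosolic ribosomes and imported. Some have a counterpart in the bacterial ribosome and others are found only in mitochondria. The promoters of many nuclear genes for mitochondrial proteins are known to bind NRF1 and the ETS-family factor GABP.

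RefSeq promoter sequences (build GRCr8, 250 bases before to 50 after the start of the gene) matched 58 of the 73 members. The bases TGCGCA, the core of the NRF1 motif, were found on either strand in 16 of the 58 windows (27.6%), compared with 7.68% of all 27457 windows of the table and 13.2% of the windows of 9904 tested genes. The bases CGGAAG, the core of the ETS and GABP motif, were found in 31 (53.4%), against 17.4% and 30.5%. GATGGCG, the core of the YY1 motif, was found in 11 (19.0%), against 4.26% and 7.25%. GGGCGG, the SP1 core, was present in 29 of the 58 member windows and 61.5% of those of tested genes, CCAAT in 43.1% and 37.5%, and TCTCGCG in 5.17% and 4.97%. All were searched on both strands, and matches of different strings may overlap, as CGGAAG can begin in the last bases of GGGCGG. These matches describe the letters of the windows and are not binding measurements.

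Shown next are the 200 bases before the start for the 2 members with the largest rise and the 2 with the largest fall that had a sequence, as deposited, in COPD lungs, followed by the other 2 called members that hold both cores in that stretch. All are from RefSeq GRCr8, written 5′ to 3′ on the strand of the gene. Capitals mark TGCGCA or CGGAAG, or their reverse complements.
Mrps6, chr11:44778467-44778666, plus strand: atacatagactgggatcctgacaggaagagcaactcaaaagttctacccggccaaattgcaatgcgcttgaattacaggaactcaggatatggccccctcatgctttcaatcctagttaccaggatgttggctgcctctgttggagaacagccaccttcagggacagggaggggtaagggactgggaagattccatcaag
Mrpl54, chr7:9103325-9103524, plus strand: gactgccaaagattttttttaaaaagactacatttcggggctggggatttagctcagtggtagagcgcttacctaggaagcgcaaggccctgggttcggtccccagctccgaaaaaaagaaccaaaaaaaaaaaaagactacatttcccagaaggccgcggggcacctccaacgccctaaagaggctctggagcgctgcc
Mrpl44, chr9:88554850-88555049, plus strand: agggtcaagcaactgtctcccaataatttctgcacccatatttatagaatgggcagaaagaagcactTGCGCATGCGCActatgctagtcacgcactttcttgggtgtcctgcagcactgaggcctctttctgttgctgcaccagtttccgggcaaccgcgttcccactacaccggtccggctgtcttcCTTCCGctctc
Mrpl51, chr4:159677788-159677987, plus strand: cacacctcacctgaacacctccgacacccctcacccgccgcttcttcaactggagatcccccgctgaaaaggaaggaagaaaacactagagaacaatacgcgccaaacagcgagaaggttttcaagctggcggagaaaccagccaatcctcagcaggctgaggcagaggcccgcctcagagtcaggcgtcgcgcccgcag
Mrpl23, chr1:207116730-207116929, plus strand: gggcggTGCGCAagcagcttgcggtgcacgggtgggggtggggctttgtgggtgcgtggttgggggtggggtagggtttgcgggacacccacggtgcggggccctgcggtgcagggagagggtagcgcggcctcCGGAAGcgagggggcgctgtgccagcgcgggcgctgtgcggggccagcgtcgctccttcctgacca
Mrps18a, chr9:22367381-22367580, minus strand: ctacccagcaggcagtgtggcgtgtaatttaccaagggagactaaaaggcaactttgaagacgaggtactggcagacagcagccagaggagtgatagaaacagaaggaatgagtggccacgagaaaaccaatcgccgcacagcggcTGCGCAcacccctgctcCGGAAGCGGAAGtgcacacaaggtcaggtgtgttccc
The 200 bases before Mrpl44 hold TGCGCA in 2 copies end to end and 1 CGGAAG, read on the other strand. Those of Mrps18a hold 1 TGCGCA and 2 CGGAAG, and those of Mrpl23 hold 1 of each. In the stretches of Mrps6, Mrpl54 and Mrpl51 neither string is written, which says nothing about the factors. Among members with a window, TGCGCA was in 5 of the 14 that rose in COPD lungs as deposited and in 3 of the 11 that fell, and CGGAAG in 7 of 14 and 7 of 11. These shares were not tested against each other.

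In control lungs the members' mean levels ran from 1.47 to 79.5 FPKM with a median of 18.4. The highest was Mrpl33, a small protein of the large subunit, at 79.5 FPKM ± 24.1 (mean ± SD, n = 5 here and for all group values). It was followed by Mrpl52 (61.9 ± 3.27), Mrpl17 (59.4 ± 7.16), the small-subunit protein Mrps21 (42.4 ± 8.93), Mrpl14 (40.1 ± 13.6) and Mrpl23 (38.1 ± 10), which lines the opening of the tunnel for the new protein. Among these 6, neighbours in the order differed by less than the larger of their SDs, except for the step from Mrpl17 to Mrps21. The median was 18.1 FPKM in COPD and 24.3 in WDD lungs. Mrpl33 was the highest in all 3 groups, and Mrpl54 came second in COPD and WDD lungs.

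The sum of the members' FPKM was 1481 ± 202 in control, 1802 ± 481 in COPD and 2161 ± 193 in WDD lungs. The Mrpl sum was 1.82 ± 0.0225 times the Mrps sum in control, 1.86 ± 0.115 in COPD and 1.84 ± 0.0336 in WDD lungs. These ratios of sums by name differed between groups by less than the SD within COPD lungs. The libraries of the COPD group were the most unlike each other: COPD 2 and COPD 3 had sums of 2422 and 2163 FPKM, while COPD 5 had 1268, below every control library. By the median of the members' differences from the control mean (log2 of FPKM + 1), COPD 2, 3 and 4 lay at 0.48, 0.44 and 0.11 and COPD 1 and 5 at -0.13 and -0.39. The 5 WDD libraries lay close together between 0.41 and 0.58.

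**Figure D1:**
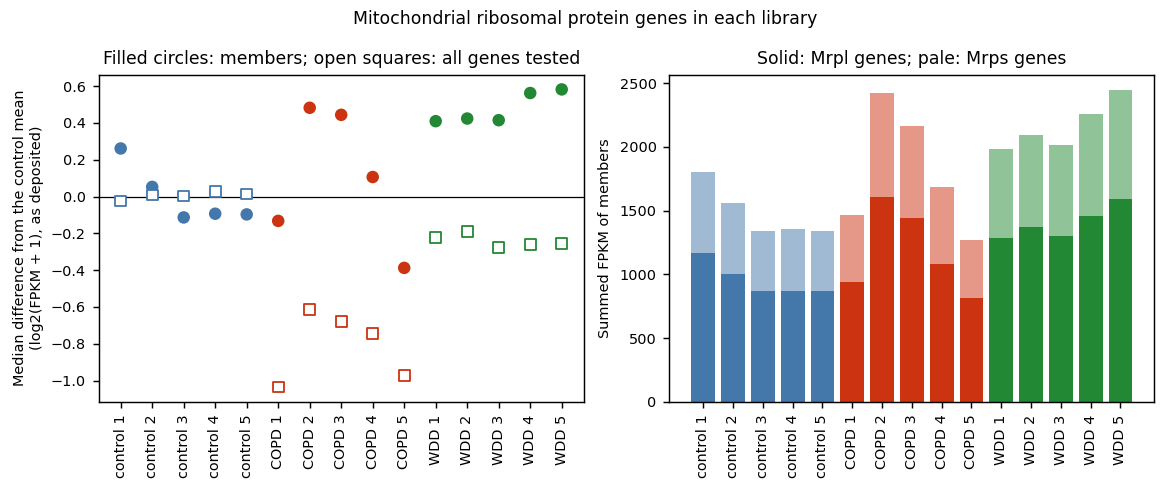
Left, the median difference from the control mean of the 73 members (circles) and of all 13172 tested genes (squares) in each library, in log2(FPKM + 1). Right, the summed FPKM of the 44 Mrpl and 29 Mrps members in each library. In every COPD library the members lie above the median of all genes.

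The level of the typical gene shifted between the groups. As deposited, the median tested gene differed by -0.81 (log2) between COPD and control lungs and by -0.23 between WDD and control lungs. FPKM values are relative to the mapped fragments of a library. Their sum was 509393 ± 25359 in control, 753879 ± 30812 in COPD and 667162 ± 21728 in WDD lungs. The 13 mitochondrially encoded mRNAs held 8.11% ± 1.94 of the FPKM sum in control, 44.9% ± 12.4 in COPD and 21.7% ± 2.90 in WDD lungs. The part of these mRNAs in the shift of the typical gene was not tested. Because the typical gene shifted, the counts and the changes of the named members are also given after median-of-ratios scaling. It divides each library by a factor (1.30 to 1.37 in control, 0.573 to 0.827 in COPD and 1.06 to 1.15 in WDD libraries) so that the typical gene stays level. The medians of all genes are then -0.05 and 0.01. Fold changes are log2 differences of FPKM + 1 with their SE, and a call means a limma p, adjusted over all 13172 genes, under 0.05.

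Between COPD and control lungs, mitoribosomal protein genes as deposited split into 17 that rose and 16 that fell, with 40 not called. Of all tested genes, 8.23% were called higher and 66.4% lower. The members' median change was 0.08 against -0.81 for all genes, and 70 of 73 lay above the all-gene median. After median-of-ratios scaling, 56 rose (all genes 30.2%) and 0 fell (all genes 32.3%). In that scaling limma called 0 members lower also at an unadjusted p under 0.05, and quantile normalisation likewise called 0 lower. The median was 0.90 against -0.05. All 17 members that rose as deposited also rose after scaling. Of the 16 that fell, 12 were no longer called and 4 changed sign. The members spread less than genes at large, with an SD of their changes of 0.56 against 1.02. The groups' libraries did not overlap for 6 members higher and 9 lower (3.99% and 52.3% of all genes), and for 38 and 0 after scaling (20.6% and 20.1%). Single COPD libraries moved the first count: 11 members rose without COPD 3, 29 without COPD 5, and 34 without COPD 1 and COPD 5. No all-gene share is given for these fits, for the unadjusted count or for the scalings other than median-of-ratios.

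**Figure D2:**
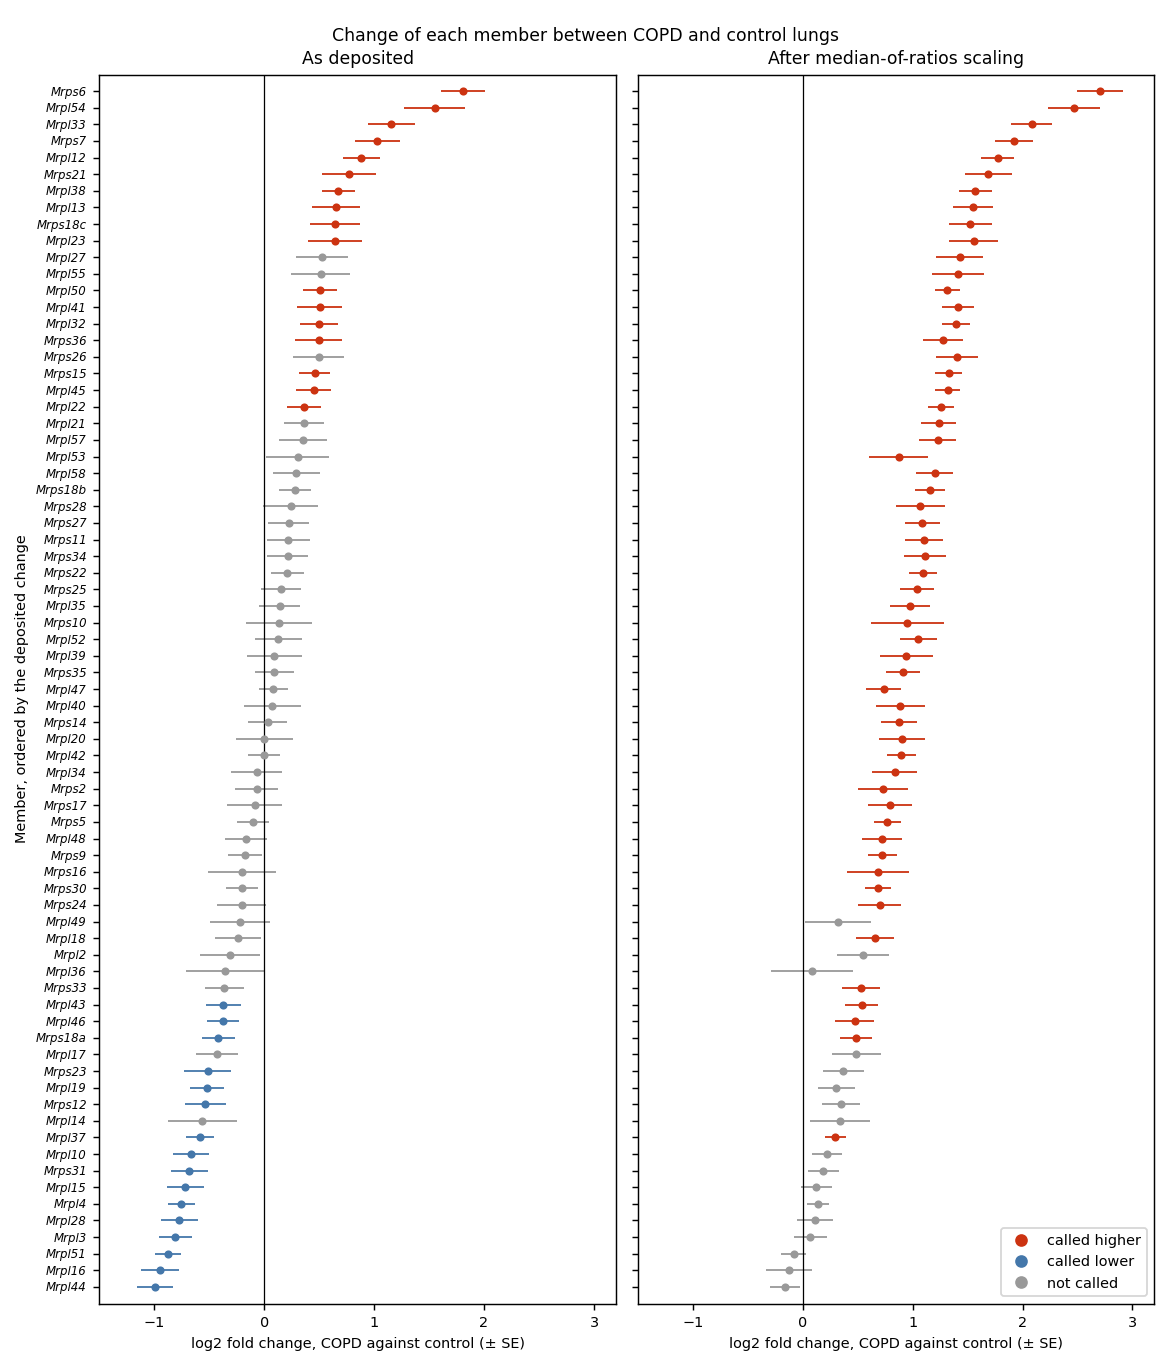
Log2 fold change ± SE of each of the 73 members between COPD and control lungs, as deposited (left) and after median-of-ratios scaling (right), in the order of the deposited change. The values run from -0.996 to 1.81 on the left and from -0.16 to 2.70 on the right, so the order is nearly kept while the zero line moves.

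Mrps6, a small-subunit protein of the platform region with a bacterial counterpart, had the largest rise. Control libraries held 12, 12.4, 15.4, 14.2 and 13.0 FPKM, COPD libraries 37.8, 57.8, 43.9, 49.1 and 61.1, and WDD libraries 13.6, 14.1, 14.6, 26.4 and 27.7. Every COPD library was above every other library, and WDD 4 and WDD 5 stood above WDD 1, 2 and 3. The COPD mean was 3.73 times the control mean, a log2 change of 1.81 ± 0.20 (limma adjusted p = 7.23e-07), or 2.70 ± 0.21 after scaling. A list of 16 neutrophil markers summed to 104 ± 16.8 FPKM in control lungs, 12583 to 43646 in COPD lungs, 116 to 121 in WDD 1, 2 and 3, and 432 and 491 in WDD 4 and WDD 5. Between 14 and 16 of these markers were above 0 in every library. WDD 4 and WDD 5 were the highest WDD libraries by this sum as well, whereas COPD 5, the highest library for Mrps6, had the lowest sum of the COPD libraries. WDD 4 and WDD 5 were also the highest WDD libraries for club markers (37073 and 38632 FPKM against 17075 to 22080). The same held for macrophage, B cell, fibroblast, smooth muscle and pericyte, and cardiac muscle sums, but not for T cell, alveolar, ciliated or endothelial sums. The part of neutrophils or other cells in the result was not tested. In RefSeq GRCr8, Mrps6 overlaps Slc5a3, and reads of such a pair may be shared. The overlap was searched without regard to strand, so strand use may not separate them.

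Mrpl54, a large-subunit protein found only in mitochondria, came next. It was at 46.9, 38.9, 29.8, 27.1 and 27.4 FPKM in control, 74.5, 181, 145, 85.8 and 57.0 in COPD and 65.4, 73.2, 78.4, 86.2 and 119 in WDD libraries. All 10 exposed libraries lay above all 5 controls, and the COPD values spread over the range of the WDD values. The change in COPD was 1.55 ± 0.27 (limma adjusted p = 8.32e-05), and 2.47 ± 0.24 after scaling.

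Mrpl33 had 122 FPKM in control 1 and 64.1 to 76.0 in the other controls, 111, 232, 222, 177 and 153 in COPD, and 128 to 198 in WDD libraries. It rose by 1.16 ± 0.21 (limma adjusted p = 0.00013; 2.08 ± 0.19 after scaling), with COPD 1 below control 1. Mrps7, a protein of the small-subunit head, had 11.6 to 22.2 FPKM in control and 26.3, 49.3, 37.1, 41.1 and 24.4 in COPD libraries, without overlap. It rose by 1.03 ± 0.21 (limma adjusted p = 0.00027; 1.92 ± 0.17 after scaling). Mrpl12, the protein of the flexible stalk that contacts translation factors, rose by 0.88 ± 0.17, from 12 to 19.1 FPKM in control to 22.2 to 39.7 in COPD libraries, again without overlap (limma adjusted p = 0.000145; 1.77 ± 0.15 after scaling).

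The other named rises were smaller. Mrpl38, of the central protuberance where both subunits meet, rose by 0.67 ± 0.15 (limma adjusted p = 0.00062; 1.57 ± 0.15 after scaling). It was at 15.6 to 22.6 FPKM in control, 23.0 to 34.7 in COPD and 17.1 to 21.9 in WDD libraries, so COPD stood apart from both other groups. Mrps21 (0.77 ± 0.25; 1.69 after scaling) and Mrpl13 (0.65 ± 0.22; 1.55 after scaling) rose while their libraries overlapped with control. In Mrps21, COPD 5 had 31.3 FPKM, below all controls, against 71.9 to 100 in the other COPD libraries.

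The 16 members that fell as deposited had changes of -0.16 to 0.53 after scaling. Mrpl44, a large-subunit protein related to ribonuclease III, was at 12.3 to 13.7 FPKM in control, 4.5, 8.86, 7.51, 4.47 and 5.74 in COPD, and 13.5 to 18.5 in WDD libraries. COPD lay below both other groups without overlap. Its change was -0.996 ± 0.16 (limma adjusted p = 3.42e-05), and -0.16 ± 0.14 after scaling (adjusted p = 0.325). Mrpl16, a protein near the peptidyl transferase centre, was at 9.81 to 14.6 FPKM in control and 3.04 to 7.44 in COPD, a change of -0.95 ± 0.17. Mrpl51, found only in mitochondria, was at 7.27 to 9.09 and 3.40 to 4.5 FPKM, a change of -0.88 ± 0.12. Mrpl4, which lines the exit tunnel, was at 23.2 to 29.2 and 12.6 to 17.2 FPKM, a change of -0.76 ± 0.12. None of these 4 was called after scaling (-0.16 to 0.14).

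The 4 members that fell as deposited and rose after scaling were Mrpl43 (-0.37 and 0.53), Mrps18a (-0.42 and 0.49), Mrpl46 (-0.38 and 0.47) and Mrpl37 (-0.59 and 0.30). Their direction is thus set by the scaling. For Mrpl37, the FPKM as deposited were 18.7 to 21.6 in control and 11.2 to 17.3 in COPD libraries. After scaling they were 14.1 to 15.7 and 17.2 to 20.9, and neither pair of ranges overlapped. The deposited calls of Mrpl43, Mrps18a and Mrpl46 were lost when control 1 was left out, that of Mrpl46 also without control 2 or COPD 4, and that of Mrpl43 also without control 2 or 3, COPD 1, 4 or 5, or WDD 1, 2 or 4.

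**Figure D3:**
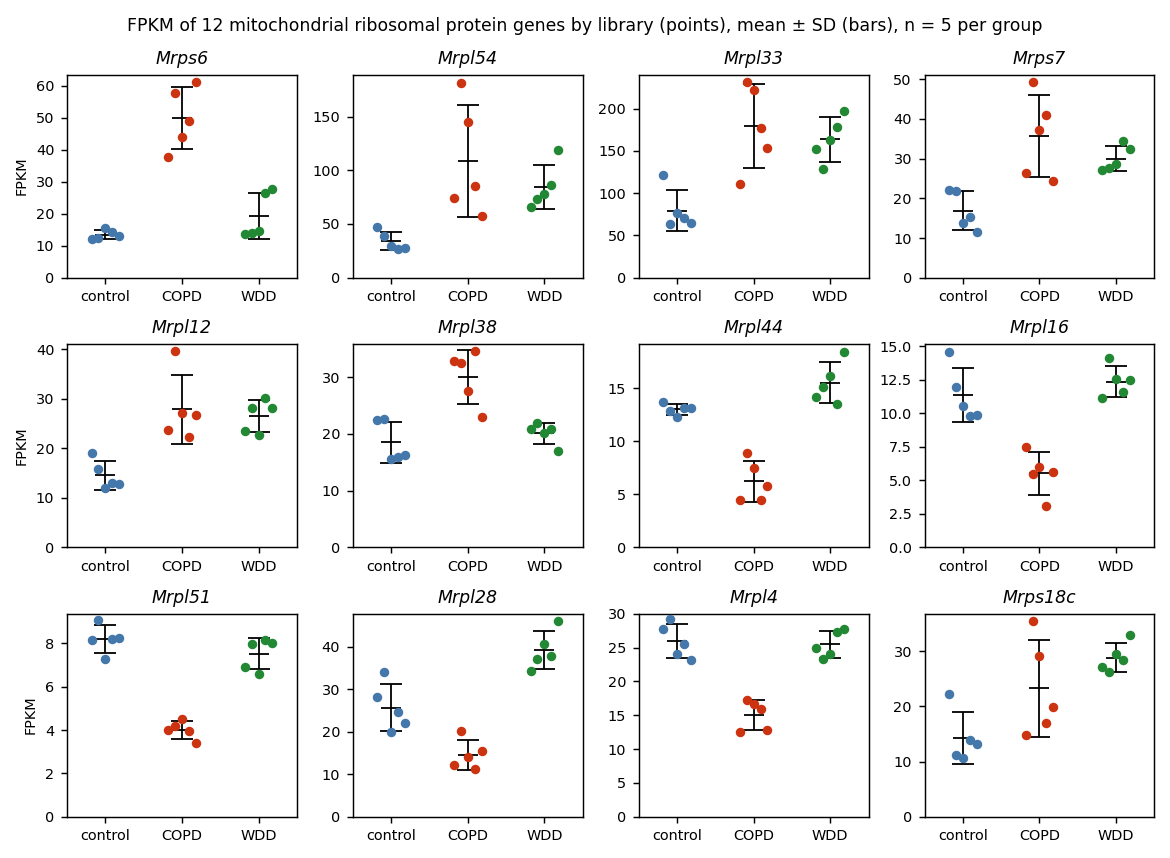
FPKM as deposited of 12 named members in each library (points), with the mean and SD of each group (bars, n = 5). The COPD libraries lie above both other groups for Mrps6 and Mrpl38, Mrpl44, Mrpl16, Mrpl51, Mrpl28 and Mrpl4 have their lowest means there, and Mrpl54, Mrpl33, Mrps7, Mrpl12 and Mrps18c have higher means in both exposed groups.

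By subunit and origin, the counts in COPD against control lungs were as follows. Of all tested genes, 8.23% rose and 66.4% fell as deposited, and 30.2% rose and 32.3% fell after scaling. Of 25 large-subunit proteins with a bacterial counterpart, 6 rose and 7 fell as deposited (14 rose after scaling). Of 21 large-subunit proteins specific to mitochondria, 5 rose and 6 fell (18 rose). Of 16 small-subunit proteins with a counterpart, 5 rose and 1 fell (15 rose), and of 10 small-subunit proteins specific to mitochondria 2 fell and 8 were not called (8 rose). Medians were -0.07, 0.07, 0.08 and 0.18. No test of the difference between these classes was made. Of 5 mitoribosomal proteins that carry other symbols, Dap3, a GTP-binding small-subunit protein, rose by 0.40 ± 0.16 while Ptcd3 and Aurkaip1 fell by 0.48 and 0.44, and all 5 rose after scaling.

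The Mrps18 paralogues occupy different places: Mrps18a is now assigned to the large subunit, while Mrps18b and Mrps18c belong to the small one. Control, COPD and WDD means were 33.1, 24.5 and 39.5 FPKM for Mrps18a, 13.4, 16.6 and 14.4 for Mrps18b, and 14.3, 23.3 and 28.9 for Mrps18c. As deposited in COPD lungs, Mrps18a fell (-0.42 ± 0.15), Mrps18b was not called (0.28 ± 0.15, limma adjusted p = 0.0925) and Mrps18c rose (0.64 ± 0.22). After scaling all 3 rose, by 0.49, 1.16 and 1.53. The differences between paralogues were not tested.

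Some members lie back to back with another gene. Of 58 members with a promoter sequence, 18 (31.0%) had an opposite-strand gene starting up to 1000 bases before them, or shortly past their start. The share was 12.1% of all genes in the promoter table and 17.0% of tested genes. Mrpl46 and Mrps11, a large-subunit and a small-subunit protein, share such a promoter, their windows having 267 bases in common. Mrpl46 was at 8.94 to 13.9 FPKM in control and 6.22 to 9.94 in COPD libraries and fell by 0.38 ± 0.15 (limma adjusted p = 0.028), while Mrps11 was at 15.2 to 22.8 and 12 to 29.8 FPKM (0.22 ± 0.20, adjusted p = 0.327). The difference between the pair was not tested. By the same annotation, 16 members overlap another protein-coding gene on either strand, among them Mrpl43 with Twnk, Mrpl16 with Stx3, Mrpl37 with Ssbp3 and Mrpl36 with Ndufs6. Reads of such pairs may be shared, so their values are uncertain.

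Between WDD and COPD lungs, as deposited, 30 members were higher and 2 lower (57.1% and 6.63% of all genes). The median was 0.36 against 0.54 for all genes, and 24 of 73 lay above the all-gene median. After scaling 3 were higher and 19 lower (23.3% and 21.4%), with a median of -0.25 against 0.03. The deposited libraries did not overlap for 21 members higher and 2 lower (40.6% and 4.43%), and after scaling for 3 and 14 (14.0% and 15.5%). This comparison uses the same COPD libraries as the one before, and the values of the members are given side by side. Without COPD 5, 5 members were lower as deposited and 29 after scaling, and no all-gene share is given for those fits.

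The members lower under both scalings were Mrps6 and Mrpl38. Mrps6 fell by 1.37 ± 0.20 (limma adjusted p = 3.4e-05; by 2.01 after scaling), and Mrpl38 by 0.55 ± 0.15 (adjusted p = 0.00448; by 1.18 after scaling). Against control lungs neither was called as deposited (0.43 ± 0.20 and 0.13 ± 0.15), while Mrps6 was called higher after scaling (0.69 ± 0.21).

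The members higher under both scalings were Mrpl28, Mrpl44 and Mrpl15, all of the large subunit. Mrpl28 was at 19.9 to 34.0 FPKM in control, 12.2, 20.2, 14.2, 11.2 and 15.5 in COPD and 34.3 to 46.1 in WDD libraries. The WDD libraries all stood above the others. It was higher by 1.38 ± 0.17 (limma adjusted p = 5.88e-06; 0.76 ± 0.16 after scaling) and was also above control (0.61 ± 0.17). Mrpl44 was higher by 1.23 ± 0.16 (0.65 ± 0.14 after scaling). Mrpl15 was at 4.63 to 9.78 FPKM in COPD and 14.5 to 16.1 in WDD libraries, higher by 0.98 ± 0.17 (0.39 ± 0.14 after scaling). Mrpl37 was called higher as deposited (0.32 ± 0.12) and lower after scaling (-0.30 ± 0.10). Its deposited call was lost without COPD 1, 4 or 5 or WDD 3, 4 or 5.

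Between WDD and control lungs, 31 members were higher and 0 lower as deposited (6.35% and 31.0% of all genes). Of these members, 37 were higher and 2 lower at an unadjusted p under 0.05 in limma. After scaling 50 were higher and 0 lower (15.9% and 16.9%), with 60 and 0 at an unadjusted p under 0.05. Quantile normalisation gave 54 and 0, and scaling by the total FPKM of each library gave 6 and 8. No all-gene share is given for these settings or for the unadjusted counts, so they describe the processing only. All 31 called as deposited were also called after median-of-ratios scaling. Its factors raise WDD values relative to control, so these calls could hardly be lost. The median was 0.44 against -0.23 for all genes (0.71 against 0.01 after scaling), and 68 of 73 lay above the all-gene median. The libraries did not overlap for 35 members higher and 1 lower (6.76% and 31.4%), and for 51 and 0 after scaling (16.9% and 16.4%).

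Mrpl54 was the furthest above control, by 1.29 ± 0.27 (limma adjusted p = 0.00167), followed by Mrpl33 (1.06 ± 0.21), Mrps18c (1.01 ± 0.22) and Mrps36 (1.01 ± 0.21). After scaling the values of these 4 were 1.56, 1.34, 1.27 and 1.22. Mrps36, named as a small-subunit protein, is now known as a part of the alpha-ketoglutarate dehydrogenase complex. It was at 3.38 to 6.06 FPKM in control, 4.5 to 11.1 in COPD and 8.10 to 12.9 in WDD libraries. Mrps18c was at 10.7 to 22.3 FPKM in control and 26.2 to 33.0 in WDD libraries. In both genes the WDD libraries lay wholly above control. Mrpl34, Mrps26, Mrpl13 and Mrpl12 were higher by 0.89, 0.88, 0.88 and 0.84 (1.16, 1.15, 1.14 and 1.09 after scaling), also without overlap. Of these 8, Mrpl34 and Mrps26 were not called between COPD and control lungs as deposited (-0.07 ± 0.23 and 0.49 ± 0.23), whereas after scaling both rose there.

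**Figure D4:**
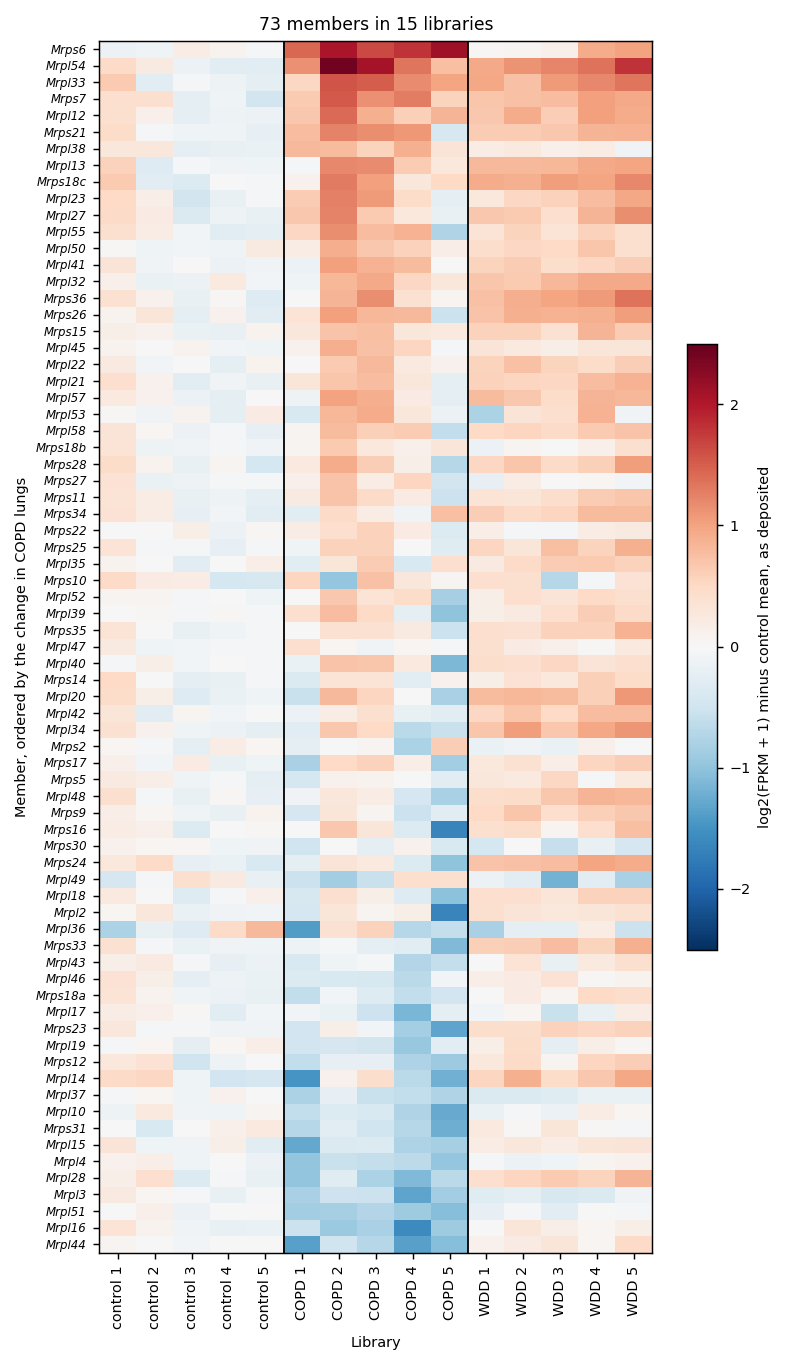
Difference of each of the 73 members (rows) from its control mean in each of the 15 libraries (columns), in log2(FPKM + 1) as deposited. Rows are ordered by the change in COPD lungs, the WDD columns resemble each other, and COPD 2 and 3 differ from COPD 1, 4 and 5 in most of the middle rows.

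Other parts of mitochondrial protein synthesis were counted against all genes in COPD lungs, of which 66.4% fell and 8.23% rose as deposited. After scaling, 32.3% of all genes fell and 30.2% rose. Differences of these lists from the members were not tested. Of 19 mitochondrial tRNA synthetases, which load tRNAs with amino acids, all 19 fell in COPD lungs as deposited, with a median of -0.88, near the -0.81 of all genes. After scaling 4 fell and 1 rose. Iars2, for isoleucine, went from 19.3 ± 2.13 to 4.42 ± 1.18 FPKM (-1.93 ± 0.15, limma adjusted p = 2.24e-08), and it also fell after scaling (-1.10). Of 17 translation factors 9 fell and 1 rose (median -0.43; after scaling 1 fell and 10 rose). Gfm2, a factor that recycles mitoribosomes, fell by 1.54 ± 0.16 and after scaling by 0.84. Of 25 factors for assembly and rRNA modification, 15 fell and 2 rose (median -0.64; after scaling 2 and 11). Trub2, a pseudouridine synthase, fell by 1.49 ± 0.18 and after scaling by 0.65.

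Of 11 genes of mitochondrial transcription and RNA processing, 5 fell and 1 rose (after scaling 1 and 8), and Tefm, the elongation factor of the mitochondrial RNA polymerase, fell by 1.00 ± 0.14 (by 0.38 after scaling). Of the 13 mitochondrially encoded mRNAs, 12 rose in COPD lungs, with a median of 2.93 (13 and 3.87 after scaling). In WDD lungs 12 were above control, with a median of 1.82 (12 and 2.11 after scaling). Of all genes, 6.35% were above control there (15.9% after scaling). Mt-atp6, a subunit of ATP synthase, was at 4798 ± 1258 FPKM in control, 37732 ± 7467 in COPD and 16527 ± 3179 in WDD lungs. Of 8 regulators of mitochondrial biogenesis, 3 rose and 4 fell (5 and 1 after scaling). The coactivator Ppargc1a fell from 2.49 ± 0.665 to 0.206 ± 0.129 FPKM (-1.52 ± 0.17; -1.15 after scaling), and the nuclear receptor Esrra rose by 1.00 ± 0.15 (1.89 after scaling). Of 17 genes used as measures of mitochondrial content, 7 fell and 2 rose (after scaling 1 and 11), and citrate synthase Cs fell by 1.39 ± 0.12 and after scaling by 0.47.

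Other families of protein complexes were counted in the same way. Between WDD and control lungs, 6.35% of all genes were higher and 31.0% lower as deposited (15.9% and 16.9% after scaling). Of 79 rows named as cytosolic ribosomal proteins, 21 rose and 8 fell in COPD lungs, with a median of 0.15 (71 rose after scaling). In WDD lungs 71 were higher than in control, with a median of 0.92 (76 after scaling). Of the 73 members, 31 were, with a median of 0.44 (50 after scaling). Some symbols, such as Rpl21, occur more than once among the cytosolic rows, so these are not all distinct genes. Of 91 nuclear-encoded respiratory chain genes, 17 rose and 25 fell in COPD lungs (69 rose and 5 fell after scaling; median -0.08), and 50 were higher and 3 lower in WDD lungs (71 and 2 after scaling; median 0.60). The respiratory chain list was taken by the start of the symbol (for example Nduf or Uqcr), so it may hold assembly factors as well as subunits. Differences between the families were not tested.

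**Figure D5:**
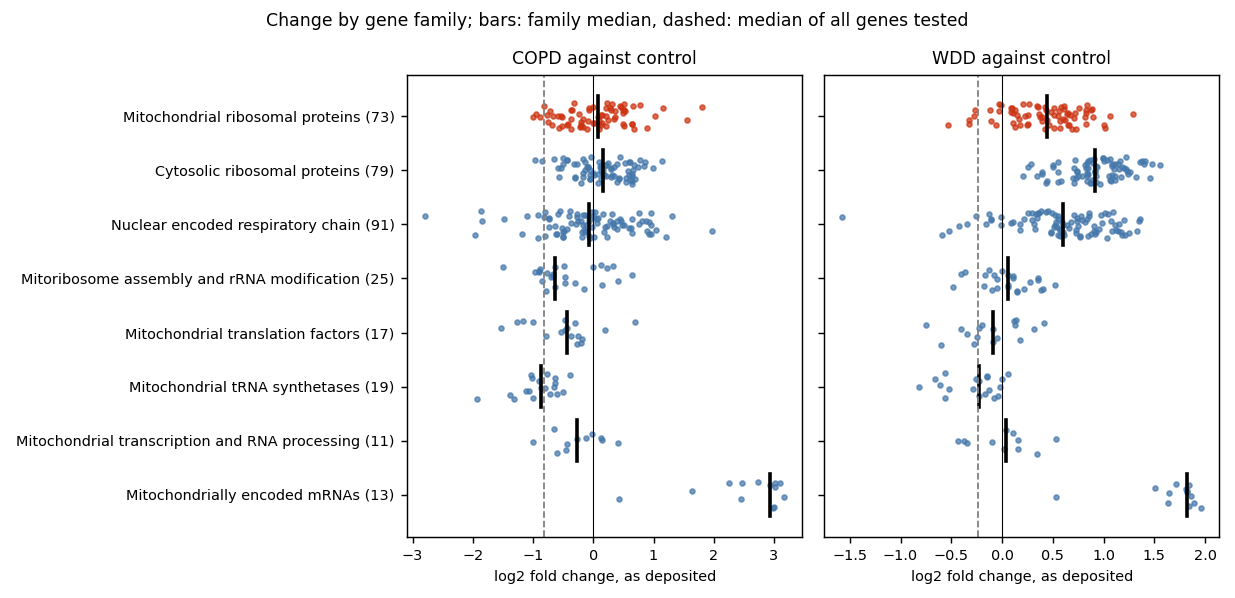
Log2 fold change as deposited of each gene row (points) by family, with the family's median (bar), between COPD and control lungs (left) and between WDD and control lungs (right). Numbers of rows are in parentheses. The medians of the ribosomal and respiratory chain families lie right of the all-gene median (dashed), that of the tRNA synthetases lies close to it, and the mitochondrially encoded mRNAs lie furthest right.

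Long and short housekeeping transcripts differed between the groups. Of all tested genes, 8.23% rose and 66.4% fell in COPD lungs as deposited, and 30.2% and 32.3% after scaling. Of 18 short housekeeping transcripts, 8 rose and 10 were not called in COPD lungs as deposited (all 18 rose after scaling), and of 18 long ones 18 fell (13 fell and 1 rose after scaling). The median of the long ones minus that of the short ones, in log2(FPKM + 1), was -0.996 ± 0.48 in control, -3.41 ± 0.46 in COPD and -3.05 ± 0.29 in WDD lungs. Control 1 had the lowest value of the controls, at -1.75. The part of transcript length in the members' changes was not tested, since lengths were not used here.

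Cell type markers also differed between COPD and control lungs, where 66.4% of all genes fell as deposited and 32.3% after scaling. All 14 tested neutrophil markers rose in COPD lungs and fell in WDD against COPD lungs under both scalings. Of alveolar type 1 markers 10 of 10 fell as deposited and 9 after scaling, of type 2 markers 7 of 9 and 6 (with 2 higher after scaling), of T cell markers 10 of 11 and 8, of endothelial markers 6 of 8 and 3, and of smooth muscle and pericyte markers 10 of 10 and 7. Of 7 fibroblast markers 3 fell and 1 rose (1 and 3 after scaling), and their sum was 404 ± 53.5 FPKM in control, 417 ± 92.5 in COPD and 411 ± 53.1 in WDD lungs. All 10 type 1 and all 9 type 2 markers, which mark lung tissue, were above 0 in every library. Summed type 1 markers were 4076 to 5427 FPKM in control, 694 to 1938 in COPD and 3416 to 4657 in WDD lungs, and summed type 2 markers 16559 to 25299, 3095 to 14391 and 19657 to 23040. In WDD lungs these sums overlapped with control, as did those of every other marker list except B cells. The members' sum was above every control library. So was the B cell marker sum, at 81.1 to 91.5 FPKM in WDD and 45.3 to 60.7 in control lungs. Club markers overlapped narrowly, at 17075 to 38632 FPKM in WDD and 10946 to 17129 in control lungs. The part of these cell types in the members' changes was not tested.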

How the data were processed

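Total RNA from 15 rat lung samples was extracted with TRIzol and made into libraries with the NEBNext Ultra kit, per the labels' protocols. Per the submitters' processing notes, cutadapt, HISAT2 and StringTie were used with build Rnor_6.0; the annotation release, versions and use of strand are not given there. The deposited values are FPKM computed by the authors. Read totals were not used here, so depth is unknown and no counting intervals are given.

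Genes reaching an FPKM of 1 in 5 or more libraries were fitted as log2(FPKM + 1), which understates changes of low genes. All 3 groups were fitted together in limma 3.58.1 (eBayes with trend, R 4.3.3), two-sided, with Benjamini-Hochberg adjustment over 13172 genes. The fit was tested on simulated data. Median-of-ratios factors used the 13383 genes above 0 in all libraries. Figures were drawn with matplotlib 3.10.9 and tables made with pandas 2.3.3 and numpy 2.4.6 in Python 3.11.15.

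Named members were, per comparison, up to 8 per direction with the largest change among those called alike under both scalings, up to 4 called oppositely and up to 6 called in COPD against control and the other way in WDD against COPD. Added to these were the 6 highest in control lungs, those nearest the filter and the Mrps18 paralogues. Of each pathway list, up to 3 genes of lowest p were named. Mrps11 and overlapping genes were chosen after their values were seen. The members and lists were chosen with earlier results of these data known, and the housekeeping lists were written after the files were seen. Replicate numbers were not treated as pairs. RefSeq tables (GRCr8) were matched by symbol, 72 of 73 members to a gene and 58 to a promoter. They were used only for names, sequences and the positions of overlapping or neighbouring genes.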

Additional observations from a re-analysis of the deposited data

Results flagged for a closer look

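Groups of 5 libraries were examined for each named member, and for the members' FPKM sum, Mrpl to Mrps ratio and share without mitochondrially encoded genes. In 6 of 99 such groups, all of named members, 1 library stood apart from the others by more than Dixon's critical value of 0.71 of the group's range. Chance does so in about 1 of 20 groups. In 5 of the 6 it was control 1: Mrpl33 had 121.8 FPKM there against 64.1 to 76.0 in the other controls, Mrps21 58.2 against 36.1 to 40.3, Mrpl13 30.1 against 15.6 to 19.2, Mrps18c 22.3 against 10.7 to 13.9, and Mrps18b 17.1 against 12.2 to 12.9. Control 1 also had the lowest long-minus-short housekeeping value of the controls (-1.75), and the part of that in these values was not tested. In COPD lungs, Mrpl12 had 39.7 FPKM in COPD 2 against 22.2 to 27.2 in the others.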

How the results depend on the processing

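The counts of called members moved with the scaling. All-gene shares are given above only as deposited and after median-of-ratios scaling. The counts below under other settings, weights or left-out libraries therefore describe the processing only. Members called higher in COPD lungs (17 as deposited) were 56 after median-of-ratios scaling, 4 after scaling to the FPKM sum, 26 after scaling to the sum without mitochondrially encoded genes, 49 after quantile normalisation, 33 with library weights and 34 without COPD 1 and COPD 5. Members called lower (16) were 0, 37, 10 and 0 under the first 4 of these. Between WDD and COPD lungs, members higher (30) were 3 after median-of-ratios scaling, 13 after scaling to the sum without mitochondrial genes and 11 after quantile normalisation, and members lower (2) were 19, 11 and 14, with 8 under library weights and 10 without COPD 1 and COPD 5. Between WDD and control lungs, members higher (31) were 50 after median-of-ratios scaling, 6 after scaling to the FPKM sum, 54 after quantile normalisation and 52 with library weights. Members lower (0) were 8 after scaling to the FPKM sum, 3 after scaling to the sum without mitochondrial genes, 3 in a fit of the 2 groups alone, 3 with library weights and 2 without COPD 1 and COPD 5. The causes of these shifts were not tested.

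Leaving out 1 library at a time gave 11 to 29 members higher and 12 to 18 lower in COPD lungs, 24 to 36 and 2 to 5 between WDD and COPD lungs, and 23 to 39 and 0 to 1 between WDD and control lungs. The lone lower call came without WDD 2. With median-of-ratios scaling these ranges were 53 to 59 and 0 to 0, 2 to 5 and 16 to 29, and 44 to 58 and 0 to 0. That combination was chosen after seeing the data.

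Same-numbered libraries did not deviate together (1 of 15 pairs with a correlation above 0.1). With the replicate block, 15 and 16 members were called in COPD lungs, 25 and 2 between WDD and COPD lungs, and 28 and 0 between WDD and control lungs. The replicate block with median-of-ratios scaling gave 56 and 0, 2 and 19, and 49 and 0.

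Signs turned in COPD lungs for Mrpl43, Mrps18a, Mrpl37 and Mrpl46, which had 0.53, 0.49, 0.30 and 0.47 after median-of-ratios scaling with or without the block, and 0.12, 0.10, 0.12 and 0.53 after quantile normalisation. With 1 library left out, values as deposited reached -0.46, -0.51, -0.68 and -0.45, and values after scaling reached 0.65, 0.58, 0.32 and 0.57. Mrpl28 had 0.11 and Mrpl4 0.14 after scaling, with extremes of -0.89 as deposited and 0.22 scaled for Mrpl28, and -0.80 and 0.17 for Mrpl4. Mrpl16 ran from -1.05 as deposited without COPD 1 to 0.070 scaled without COPD 4. Mrpl51 had 0.14 after quantile normalisation. Between WDD and COPD lungs Mrpl37 had -0.30 after median-of-ratios scaling, -0.15 after quantile normalisation and -0.025 after scaling to the sum without mitochondrial genes, and with 1 library left out it ran from -0.33 scaled to 0.41 as deposited. The causes were not tested.

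A removal of the trend with coding length was not run, since lengths were not used here. Depth is unknown, so low members such as Mrpl49 and Mrpl36 have no counting interval.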

Other observations

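As a share of the FPKM sum of a library, the members held 0.290% ± 0.0273 in control, 0.239% ± 0.0618 in COPD and 0.324% ± 0.0216 in WDD lungs (mean ± SD, n = 5). With the mitochondrially encoded genes left out of the sum, the shares were 0.316% ± 0.0294, 0.442% ± 0.0952 and 0.414% ± 0.0244. By their means, COPD lungs were thus lowest by the first share and highest by the second, but the libraries overlapped. By the first share, COPD libraries ran from 0.178% to 0.319% and control libraries from 0.269% to 0.325%. By the second, COPD libraries ran from 0.281% to 0.527% and WDD libraries from 0.381% to 0.446%. COPD 5, at 0.281%, lay below every control library. The summed values after median-of-ratios scaling were 1109 ± 171 in control, 2526 ± 349 in COPD and 1969 ± 207 in WDD lungs.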
